A study of Mus musculus with 8 samples.

Results

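Expression of 37 skeletal muscle genes was followed in cultures of mouse embryonic fibroblasts, out of 18193 genes on the arrays. The genes were chosen as regulators, sarcomere components and neuromuscular genes of skeletal muscle, and the probe set with the highest average signal across the arrays stood for each. All 37 had a probe set, and 11 had more than 1. By role they comprise 6 regulators of muscle development, 19 genes of the sarcomere, 6 genes of the neuromuscular junction, and 6 genes of the muscle membrane, calcium store and energy supply.

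The fibroblasts were isolated from C57BL6/J embryos at E14.5, were wild type (Hif-p4h-1+/+) or knockout (Hif-p4h-1-/-), and were kept in normoxia or hypoxia. Hif-p4h-1, encoded by Egln2, is one of the prolyl hydroxylases that mark hypoxia-inducible factor for degradation when oxygen is present. The 4 groups hold 2 arrays each, and the titles mark 1 array of every group as a second set, so each set holds the 4 conditions once. The labels used here give no oxygen level, time in hypoxia, passage number or number of embryos per array, and do not state that the 2 arrays of a group are separate cultures. P-values therefore reflect how far these arrays differ among themselves, and that variation may be technical.

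Skeletal muscle arises when the basic helix-loop-helix factors Myod1, Myf5, Myog and Myf6 bind short DNA elements called E-boxes and, together with Mef2 proteins, switch on muscle genes in precursor cells. Precursors then leave the cell cycle, fuse into myotubes and assemble sarcomeres from actin, myosin and the calcium-sensing troponin complex. Fibroblasts, the connective tissue cells named by the labels, normally express few of these genes.

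The sequences upstream of 4 of the genes are shown because these genes represent the patterns described below: Myog as the regulator with the widest range over the arrays, Mylpf and Myh3 as sarcomere genes that followed it, and Acta1 as the sarcomere gene that did not. RefSeq promoter entries on build GRCm38.p6 matched 29 of the 37 genes, with 33 promoters. Each line gives the 250 bases before the transcription start, read 5′ to 3′ in the direction of transcription. Capitals mark E-boxes (CANNTG) and, in Acta1, also the CArG box, the element bound by serum response factor.
Myog, chr1:134289754-134290003, plus strand: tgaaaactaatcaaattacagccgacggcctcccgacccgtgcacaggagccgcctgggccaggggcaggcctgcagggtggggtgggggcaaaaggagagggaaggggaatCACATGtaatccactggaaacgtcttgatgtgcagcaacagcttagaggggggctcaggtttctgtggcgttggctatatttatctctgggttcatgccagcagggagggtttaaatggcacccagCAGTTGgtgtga
Mylpf, chr7:127211358-127211607, plus strand: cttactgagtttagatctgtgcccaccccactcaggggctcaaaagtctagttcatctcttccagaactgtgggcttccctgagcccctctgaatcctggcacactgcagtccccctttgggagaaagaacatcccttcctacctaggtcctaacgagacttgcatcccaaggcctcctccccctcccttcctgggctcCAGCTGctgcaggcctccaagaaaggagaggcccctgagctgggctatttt
Myh3, chr11:67078050-67078299, plus strand: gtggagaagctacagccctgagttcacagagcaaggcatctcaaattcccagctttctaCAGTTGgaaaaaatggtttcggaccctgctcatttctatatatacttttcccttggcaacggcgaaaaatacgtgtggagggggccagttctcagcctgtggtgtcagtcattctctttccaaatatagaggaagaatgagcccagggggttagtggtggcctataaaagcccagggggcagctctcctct
Acta1, chr8:123894776-123895025, minus strand: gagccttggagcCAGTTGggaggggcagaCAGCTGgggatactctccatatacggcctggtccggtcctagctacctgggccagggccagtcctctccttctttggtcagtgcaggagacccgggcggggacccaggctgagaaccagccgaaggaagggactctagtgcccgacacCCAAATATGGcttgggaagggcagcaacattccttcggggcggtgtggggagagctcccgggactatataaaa

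An E-box of the form CANNTG, a pattern that matches the same places on either strand, lay in 27 of the 33 promoters (81.8%). It lay in 66.2% of all 32851 promoters of the same length. Its narrower form CAGCTG lay in 13 (39.4%), against 13% of all. The CArG box, searched on both strands, lay in 2 (6.06%), those of Acta1 and Actc1, against 1.47% of all. The TATA box TATAAA, also searched on both strands, lay in 9 (27.3%), against 12.4% of all. These matches describe letters in a window and no binding was measured.

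The deposited values are log2 expression values, so a difference of 1 is a 2-fold difference, and levels are compared between arrays for 1 probe set at a time. The targeted gene was examined first. Egln2 read 8.84 and 9.07 in wild-type normoxia (first and second set), 8.95 and 9.13 in wild-type hypoxia, 8.0 and 8.34 in knockout normoxia, and 8.66 and 8.85 in knockout hypoxia. In each set every knockout array was below both wild-type arrays, and the fall in normoxia was 0.79 ± 0.09 (SE of the limma fit, adjusted p = 0.0489). In hypoxia the difference was -0.285 ± 0.089 and was not called (adjusted p = 0.725). Within the knockout, Egln2 was higher in hypoxia than in normoxia by 0.585 ± 0.089 (adjusted p = 0.00919). The same difference in wild type was 0.085 (adjusted p = 0.575). The position of its probe set relative to the deleted part of the gene is not known here.

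Many of the muscle genes, most sarcomere genes among them, were high on 2 arrays, the wild-type arrays of the first set in normoxia and in hypoxia. The same genes were low on both knockout arrays of that set and on all 4 arrays of the second set, wild type included. On those 2 arrays 17 of the 37 genes exceeded every one of the other 6 arrays by at least 1 log2 unit (45.9%), against 62 of all 18193 genes (0.341%). By at least 2 log2 units it was 10 of the 37, against 13 of all genes (0.0715%), so these 10 make up most of that short list. The 37 genes were chosen with earlier results of these data known, and the pair of arrays was singled out by its values. These shares are therefore a description. Of 64 other skeletal muscle genes, 3 stood apart by at least 1 log2 unit (4.69%). By any margin, 21 of the 64 were above all other arrays (32.8%, against 8.18% of all genes). No member stood apart by 1 log2 unit on the 2 arrays of any other combination of genotype and set, where such genes were rare: 0.0275% of all genes were higher and 0.0055% lower in first-set knockout, 0.0055% higher and 0% lower in second-set wild type, and 0% higher and 0.011% lower in second-set knockout. On the first-set wild-type pair itself 0 members and 0.0385% of all genes were lower by that much. Because the RNA comes from bulk cultures, the values cannot tell which cells carried these transcripts, how many there were, or how much RNA each held.

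**Figure D1:**
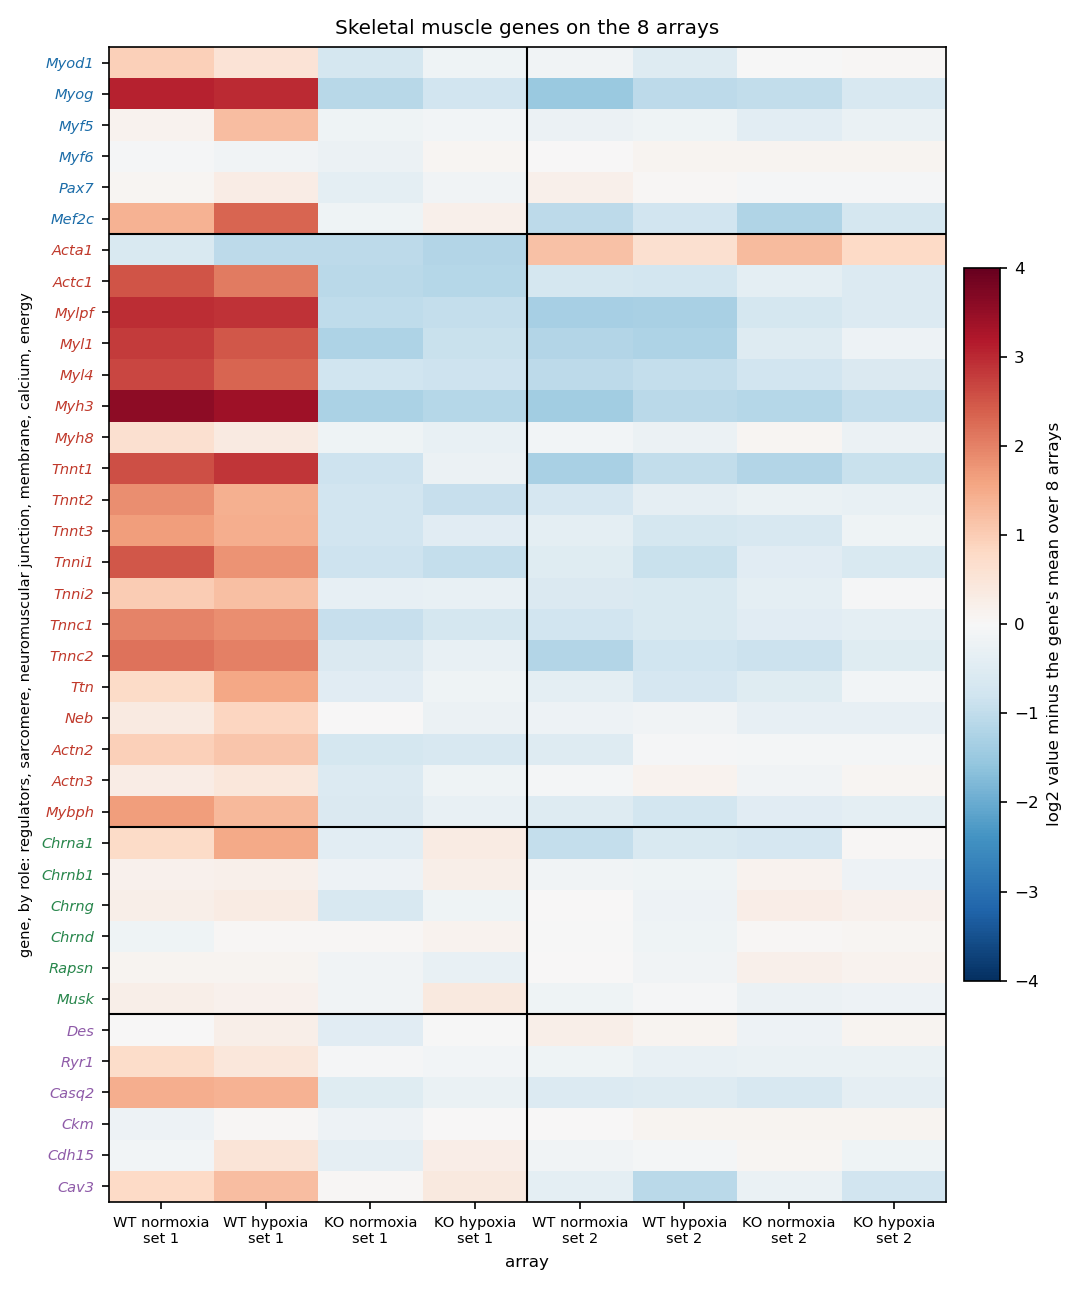
Expression of the 37 muscle genes on the 8 arrays, as log2 values centred on each gene's mean over the arrays and ordered by role. The 2 wild-type arrays of the first set carry high values for Myog, Mef2c and most sarcomere genes, whereas Acta1 is high on the 4 arrays of the second set.

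Among the regulators, Myog, the factor that drives myoblasts into differentiation, had the widest range. In the first set Myog read 8.04 in wild-type normoxia and 7.96 in wild-type hypoxia, but 3.86 and 4.20 in the knockout. In the second set it read 3.48 and 3.93 in wild type and 3.98 and 4.33 in the knockout. Both first-set wild-type arrays were thus 3.63 log2 units or more above all others, and the 6 low arrays lay within 1 log2 unit of each other.

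Mef2c, a MADS-box factor that acts beside the myogenic factors and is also expressed in other lineages, followed the same order with a smaller gap. Mef2c read 7.99 and 8.91 in wild-type normoxia and hypoxia of the first set and 6.41 and 6.80 in the knockout. Its second-set values were 5.55 and 5.82 in wild type and 5.39 and 5.88 in the knockout. Unlike Myog, Mef2c was also higher in first-set knockout cells than in any second-set culture. Of its other 4 probe sets, all of which put the first-set wild-type arrays highest, 2 did so by more than 1 log2 unit (1.04 and 1.36) and 2 by less (0.24 and 0.83).

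Myod1, the factor that commits cells to the muscle lineage, read 4.98 and 4.57 on the first-set wild-type arrays, 3.33 and 3.84 in first-set knockout, 3.88 and 3.5 in second-set wild type and 4.02 and 4.07 in second-set knockout. The gap was 0.50 log2 units, and its second probe set was flat, between 2.54 and 2.90. Myf5, an early myogenic factor, read 4.06 in first-set wild-type hypoxia, 2.95 in first-set wild-type normoxia and between 2.40 and 2.71 elsewhere. Myf6, a late myogenic factor, stayed between 2.74 and 3.10, and Pax7, which marks muscle stem cells, between 3.25 and 3.92. The probe sets of these 4 genes had means below the 25th percentile of genes and were not tested. Among the 6 regulators, Myog and Mef2c were thus the 2 that stood apart by at least 1 log2 unit.

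Among sarcomere genes, 18 of 19 were above all other arrays on the first-set wild-type pair, 14 of them by at least 1 log2 unit. Over all roles it was 26 of 37, against 8.18% of all genes. Myh3, the embryonic myosin heavy chain, had the widest gap of all 18193 genes, at 4.35 log2 units. Myh3 read 8.53 and 8.35 on that pair, 3.68 and 3.81 in first-set knockout, 3.58 and 3.87 in second-set wild type, and 3.83 and 4.00 in second-set knockout. Myh8, the perinatal heavy chain, read 3.76 and 3.47 on the pair and between 2.82 and 3.19 elsewhere, and was below the test's filter.

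The myosin light chains stood apart in the same way. Mylpf, the phosphorylatable light chain of fast muscle, read 10.50 and 10.41 on the pair and 6.51 and 6.58 in first-set knockout. In the second set Mylpf read 6.20 and 6.25 in wild type and 6.83 and 6.99 in the knockout. Second-set knockout arrays were therefore above their wild-type counterparts, the reverse of the first set. Myl1, the alkali light chain of fast fibres, read 8.67 and 8.37 on the pair and 4.65 and 4.99 in first-set knockout, then 4.70 and 4.64 in second-set wild type and 5.35 and 5.68 in second-set knockout. Myl4, the embryonic and atrial light chain, read 9.72 and 9.36 on the pair, 6.23 and 6.22 in first-set knockout, 5.98 and 6.09 in second-set wild type, and 6.27 and 6.45 in second-set knockout. Its second probe set was flat, with a gap of -0.07.

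The troponins, which give the thin filament its calcium response, covered slow, fast and cardiac forms. Tnnt1, the slow tropomyosin-binding subunit, read 8.57 and 8.83 on the pair, 5.17 and 5.75 in first-set knockout, 4.69 and 4.99 in second-set wild type and 4.8 and 5.08 in second-set knockout. Tnnc2, the fast calcium-binding subunit, read 7.62 and 7.47 on the pair, 4.86 and 5.16 in first-set knockout, 4.28 and 4.67 in second-set wild type and 4.58 and 4.98 in second-set knockout. Tnni1, the slow inhibitory subunit, read 9.17 and 8.48 on the pair, 5.86 and 5.73 in first-set knockout, 6.20 and 5.79 in second-set wild type, and 6.24 and 6.07 in second-set knockout. The gaps of these were 2.82 for Tnnt1, 2.31 for Tnnc2 and 2.24 for Tnni1. The gaps of the remaining troponins were 2.25 for the slow and cardiac Tnnc1, 1.70 for the cardiac and embryonic Tnnt2, 1.64 for the fast Tnnt3 and 1.07 for the fast Tnni2. Slow and fast forms thus stood apart, as did Tnnc1 and Tnnt2, which are also cardiac forms. Tnni3, the cardiac inhibitory subunit and not a member, did not. It read 3.79 and 3.62 on the pair, with a gap of -0.40, and was below the filter. For the tropomyosin-binding and inhibitory subunits the slow form had a wider gap than the fast one. A second Tnnt2 probe set gave 1.65.

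The 2 actins differed from each other. Actc1, the actin of heart and of embryonic skeletal muscle, read 10.04 and 9.58 on the pair, 6.42 and 6.38 in first-set knockout, 6.82 and 6.78 in second-set wild type, and 7.11 and 6.96 in second-set knockout. Acta1, the actin of mature skeletal muscle, read 9.65 and 9.21 on the pair, 9.22 and 9.10 in first-set knockout, 11.44 and 10.90 in second-set wild type and 11.54 and 11.06 in second-set knockout. Every second-set value of Acta1 was above every first-set value, and no other sarcomere gene had that order. Actin genes are close in sequence, and cross-hybridisation between them was not tested. Second-set arrays also had more smooth muscle transcripts: 11 of 12 smooth muscle genes were higher there (median 0.948 log2 units), Acta2 among them. Across the groups, between 8995 and 10742 of all 18193 genes were higher on the second-set array. The part of the smooth muscle transcripts in the Acta1 values was not tested.

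The structural and scaffold genes of the sarcomere had smaller gaps. Mybph, a myosin-binding protein, read 5.96 and 5.61 on the pair and between 3.56 and 4.02 elsewhere, a gap of 1.59, and Actn2, an actin-crosslinker of the Z-disc, had a gap of 1.00. The gap was 0.88 for Ttn, the giant elastic titin, at its brightest probe set. At the others of its 6 probe sets it was 3.10, 1.41, 1.39, 0.06 and -0.62. The choice of probe set thus decides whether Ttn passes 1 log2 unit. Actn3, the fast-fibre relative of Actn2, read 5.59 and 5.75 on the pair and reached 5.45 elsewhere. Neb, the thin-filament ruler nebulin, read 3.69 and 4.18 on the pair and between 2.98 and 3.34 elsewhere, below the filter.

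**Figure D2:**
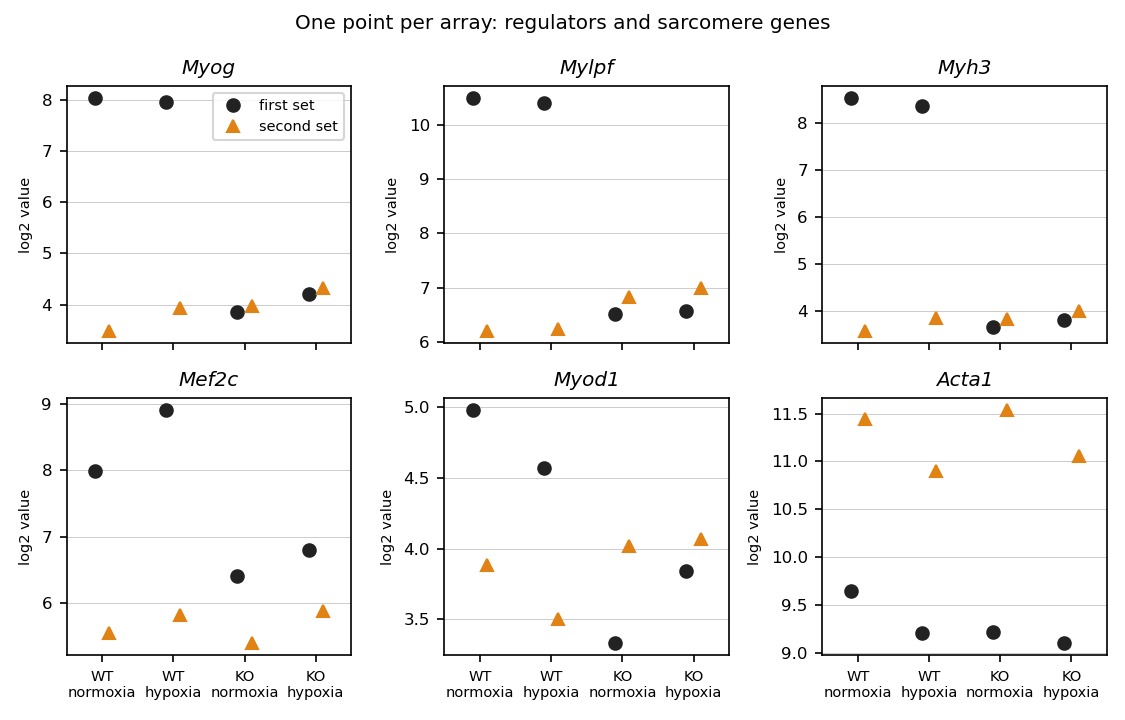
Log2 expression of single muscle genes on each array, by genotype, oxygen condition and set. The genes are Myog, Mylpf, Myh3, Mef2c, Myod1 and Acta1, 1 point per array. For Myog, Mylpf and Myh3 the first-set wild-type arrays lie apart from the other 6, and for Acta1 the second-set arrays lie above the first-set ones.

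Of the 6 neuromuscular genes, 1, Chrna1, was above all other arrays on the pair. Chrna1, the ligand-binding subunit of the muscle acetylcholine receptor, read 7.71 in wild-type normoxia and 8.47 in wild-type hypoxia of the first set and 6.53 and 7.30 in the knockout. Chrna1 then read, in the second set, 6.01 and 6.36 in wild type and 6.30 and 7.0 in the knockout. The other receptor subunits Chrnb1, Chrng and Chrnd had ranges of 0.43, 0.98 and 0.33 log2 units over the 8 arrays. Rapsn, which clusters the receptor, ranged over 0.48, and Musk, the kinase that organises the synapse, over 0.61. The 6 genes together had a median excess of 0.253 log2 units on the pair over the mean of the other arrays, against 2.19 for sarcomere genes.

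Among membrane, calcium and energy genes, Casq2 stood apart most. Casq2, a calcium-binding protein of the sarcoplasmic reticulum, read 7.25 and 7.18 on the pair, 5.29 and 5.51 in first-set knockout, 5.23 and 5.27 in second-set wild type, and 5.14 and 5.42 in second-set knockout. Cav3, the muscle caveolin, read 6.19 and 6.62 on the pair and 5.45 and 5.80 in first-set knockout, then 4.99 and 4.33 in second-set wild type and 5.13 and 4.64 in second-set knockout. Ryr1, the calcium release channel, read 4.86 and 4.57 on the pair and between 3.85 and 4.07 elsewhere, below the filter. Ckm, the muscle creatine kinase, stayed between 5.09 and 5.41, Des, the intermediate filament protein desmin, between 6.61 and 7.29, and Cdh15, an adhesion protein of myoblasts, between 5.38 and 6.27. For Ckm and Des the 2 arrays were within the range of the others.

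Regulators and sarcomere genes were compared as means of log2 values, each centred on its mean over the 8 arrays. On the first-set wild-type arrays the 6 regulators stood at 0.932 in normoxia and 1.207 in hypoxia, and the 19 sarcomere genes at 1.704 and 1.596. On the other 6 arrays the regulators lay between -0.463 and -0.156 and the sarcomere genes between -0.735 and -0.320. Both role groups were thus high on the same 2 arrays, and the sarcomere mean exceeded the regulator mean there by 0.581 ± 0.271 (SD of the 2 arrays). That order turned to -0.663 when only the 2 regulators and 17 sarcomere genes above the filter were used, which leaves out Myod1, Myf5, Myf6 and Pax7. Myog, Myh3, Tnnt3, Ttn and Mybph pass that filter only through these 2 arrays, so both orders are descriptions that depend on which members are kept. The neuromuscular mean reached 0.396 and the membrane, calcium and energy mean 0.640 on the pair.

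**Figure D3:**
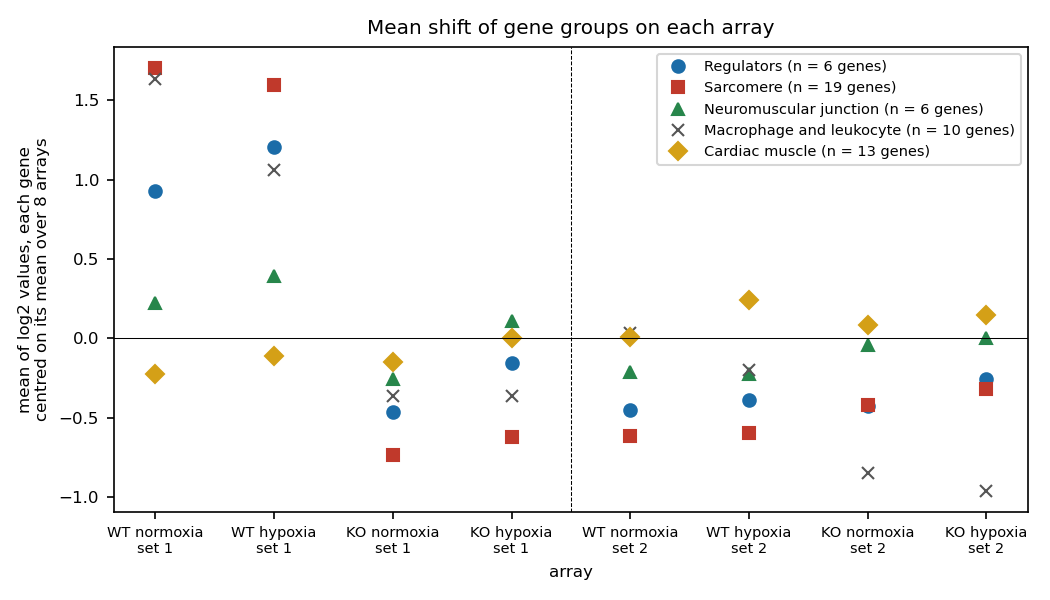
Mean centred log2 value of regulators, sarcomere genes, neuromuscular genes and, for comparison, macrophage and leukocyte genes and cardiac genes on each of the 8 arrays. Regulators and sarcomere genes are highest on the 2 wild-type arrays of the first set, at 0.932 and 1.207 for regulators and at 1.704 and 1.596 for sarcomere genes, and lie below 0 on the other 6.

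For the comparison of knockout with wild type, the 2 sets differed in sign for most sarcomere genes. In the first set the knockout array was below the wild-type array for 19 of 19 sarcomere genes in both conditions. The median difference was -2.64 in normoxia and -2.31 in hypoxia, and 10508 and 9030 of all 18193 genes were below. The second-set knockout array was above for 15 of 19 in each condition, with a small median difference of 0.20 both times. Of all genes, 8583 were above there in normoxia and 9372 in hypoxia. Of the regulators, 6 of 6 were lower in the first-set knockout in normoxia and 5 of 6 in hypoxia, against 3 of 6 in either condition of the second set. Each count compares 1 array with 1 array over genes that vary together, so the genes are not replicates.

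The main test averages over the sets, with limma fitted to all arrays and the set as a block. In it 0 of the 30 members tested were called at an adjusted p under 0.05 for genotype in normoxia (0.0366% of all 13647 genes were called), 0 in hypoxia (0.0293%) and 0 over both (0.256%). At an unadjusted p under 0.05 it was 1, 0 and 12 members, against 6.70%, 5.52% and 10.2% of all tested genes. Among the 24 members whose mean passes the filter also without the high pair it was 1, 0 and 10. The contrast over both conditions counts the normoxic and hypoxic array of 1 genotype and set as separate. These may come from 1 preparation, so its p-values do not measure spread between preparations. Over all 37 members the median knockout difference was -1.21 in normoxia and -1.35 in hypoxia of the first set, and 0.14 and 0.16 in the second. All 18193 genes had medians of -0.05 and 0 in the first set and of 0 and 0.01 in the second.

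A further fit, chosen after the values were seen, gave each combination of genotype and set its own mean. Its replicates are the normoxic and hypoxic array of 1 genotype and set, which may come from 1 preparation, so its p-values do not measure spread between preparations. In the first set 21 of the 30 tested members fell in the knockout and 0 rose, against 2.85% of all genes lower. In 6 of the 30 (Myog, Myh3, Tnnt3, Ttn, Mybph and Musk) the mean passes the filter only through the high pair. Among the 24 members that pass it on the other arrays, 16 fell. Of these, Mylpf fell by 3.91 ± 0.11 (adjusted p = 4.99e-07) and Tnnt1 by 3.24 ± 0.13 (adjusted p = 2.95e-06). The genes and this fit were chosen with the values known, so these p-values are no independent support. The difference of Myog, -3.97, is likewise a description. Acta1 differed by -0.27 ± 0.09 (adjusted p = 0.137).

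In the second set the same fit called 2 of the 30 higher in the knockout (0.0806% of all genes) and 0 lower, with 6 at an unadjusted p under 0.05 in either direction (5.52% of all genes). They were Myl1, up by 0.845 ± 0.132, and Mylpf, up by 0.685 ± 0.106, each at an adjusted p of 0.0439, with both knockout arrays above both wild-type arrays. Myog differed by 0.45. The difference between the sets was itself tested as a genotype by set interaction, which was called for 19 of the 30, all in the direction of a higher knockout difference in the second set (0.74% of all genes). Among the 24 members above the filter on the other arrays it was 14. These calls too come from genes and a fit chosen with the values known, so they are no independent support.

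**Figure D4:**
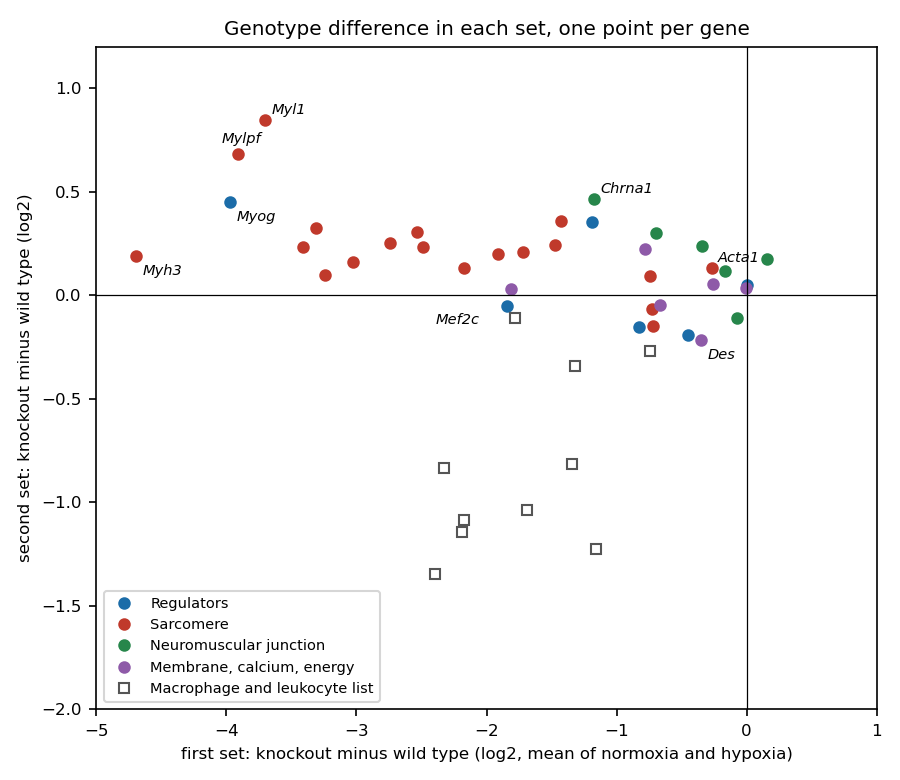
Knockout minus wild type in log2 units, averaged over normoxia and hypoxia, in the first set (horizontal axis) and the second set (vertical axis), for the muscle genes and the macrophage and leukocyte genes. Muscle genes spread from 0.16 to -4.70 in the first set but lie between -0.215 and 0.845 in the second among those tested, whereas macrophage and leukocyte genes lie below 0 in both sets.

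Genes of other cell types were examined on the same pair of arrays. Of 64 other skeletal muscle genes measured, 3 stood apart by at least 1 log2 unit: Mymx, the fusion micropeptide myomixer (gap 2.78), Mb, the oxygen-storing myoglobin (1.54), and Myom2, an M-band protein (1.16). Mymx read 5.66 and 6.54 on the pair and between 2.55 and 2.88 elsewhere, while the median excess of the 64 was 0.177. By any margin, 21 of the 64 were above all other arrays (32.8%). Of 13 cardiac genes, 0 stood apart, with a median excess of -0.187, although Actc1, Tnnt2, Tnnc1 and Myl4 also serve the heart. Of 17 inhibitors of the myogenic factors, among them the Id and Twist genes, 0 were above the other arrays and 2 were below them all (11.8%, against 6.76% of all genes), with a median excess of -0.0667. Of 12 smooth muscle genes, 5 were below all other arrays (41.7%), with a median excess of -0.771. Of 14 fibroblast genes, only Lum, a collagen-binding proteoglycan, stood apart (1.11), and the list's mean log2 value was between 11.6 and 11.8 on the pair and between 11.4 and 11.6 elsewhere. Among 8 endothelial, 7 epithelial, 8 cartilage and 6 neural and Schwann cell genes, 0 stood apart by 1 log2 unit.

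Macrophage and leukocyte genes were high on the same 2 arrays. Of 10 such genes 6 stood apart by at least 1 log2 unit (Ptprc, Csf1r, Adgre1, Tyrobp, Fcer1g and Laptm5), and the list's mean log2 value was between 7.51 and 8.08 on the pair and between 5.49 and 6.48 elsewhere. Csf1r, the receptor for the macrophage growth factor, read 9.84 and 9.54 on the pair and still 6.78 to 8.16 elsewhere. In the second set the order of genotypes differed between the lists. Macrophage genes were lower in the knockout there too, with 4 of 10 called lower (0.213% of all genes) and a median of -0.938, where the 37 muscle genes had medians of 0.14 in normoxia and 0.16 in hypoxia. Ratios of 3′ to 5′ control probes, a sign of RNA integrity, overlapped for Actb (0.56 to 0.73 on the pair, 0.31 to 0.63 elsewhere, in log2 units) and for Gapdh (0.39 to 0.52 and 0.14 to 0.47). The part of these in the muscle gene values was not tested.

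Likeness to Myog and to Mylpf was ranked by Pearson's r over the 8 arrays among 2695 other genes with a range of at least 1 log2 unit. Because 2 arrays stand apart, the ranking reports the shared contrast of these 2 with the rest. Synpo2l, a Z-disc protein, came first for both, followed for Myog by S100a8, a calcium-binding protein of myeloid cells, and Mb. Synpo2l read 7.21 and 7.08 on the pair and between 5.77 and 6.09 elsewhere. The first 10 for Myog or Mylpf also hold Erbb3, a neuregulin receptor, Hjv, the muscle and liver protein hemojuvelin, and the leukocyte genes Adgre1, Clec4a2 and Cx3cr1.

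Between the sets, in the fit with the set as a block, 7 of the 30 tested members were called (46.1% of all genes were). Acta1 was higher in the second set by 1.94 ± 0.10 (adjusted p = 8.7e-06). The 6 lower in the second set were Tnnt1 (-2.19), Mef2c (-1.87), Tnnc2 (-1.65), Cav3 (-1.24), Chrna1 (-1.08) and Casq2 (-1.04). The share of members called was below that of all genes. Without both wild-type arrays of the first set, the difference between the sets rests on the knockout arrays alone. In these Acta1 was higher in the second set by 2.14 and Mef2c lower by 0.97. For the other 5 the difference came to between -0.74 and -0.12 and was no longer called. The count of 7 came to 3 without any 1 of the 4 wild-type arrays, to 16 without either hypoxic knockout array and to 18 without either normoxic knockout array.

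The hypoxia response of the muscle genes was small beside these differences. In wild type 1 of the 30 was called (16.4% of all genes were), in knockout 0 (10.1%, with 1 member at an unadjusted p under 0.05), and over both genotypes 1 (28.7%). Both calls were Acta1, which fell by 0.49 ± 0.14 in wild type (adjusted p = 0.0437). Over both genotypes it fell by 0.395 ± 0.096 (adjusted p = 0.017). The hypoxic array of Acta1 was below the normoxic one in all 4 pairs, by 0.44 and 0.54 in wild type and by 0.12 and 0.48 in the knockout. The wild-type call was kept in 2 of the 8 fits that left out 1 array, those without either normoxic knockout array (adjusted p = 0.0183 and 0.0199), and lost in the other 6 (between 0.0653 and 0.255). The call over both genotypes was kept in 4 of 8, and lost without the first-set wild-type normoxic array, the second-set wild-type hypoxic array or either hypoxic knockout array (adjusted p between 0.0558 and 0.0744). With the set as a random block both calls were lost (adjusted p = 0.463 in wild type and 0.344 over both), as they were without both first-set wild-type arrays (0.188 and 0.0676) and with no block (0.957 and 0.877).

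Chrna1 and Mef2c pointed the other way. Chrna1 was higher in hypoxia by 0.76 and 0.35 in wild type and by 0.77 and 0.70 in the knockout, and Mef2c by 0.92 and 0.27 and by 0.39 and 0.49. With the set as a block neither was called over both genotypes (Chrna1 0.645 ± 0.300, adjusted p = 0.15, and Mef2c 0.52 ± 0.33, adjusted p = 0.296). With a mean for each genotype and set, which takes the high first-set wild-type arrays out of the error, 5 of the 30 were called over both genotypes (34.8% of all genes): Chrna1 (adjusted p = 0.000834), Mef2c (0.00695) and Tnnt1 (0.355 ± 0.095, 0.0176) rose, and Acta1 and Tnni1 fell. In wild type alone that fit called 4 members (23.9% of all genes) and in knockout 1 (16.9%), which was Chrna1 (0.735 ± 0.131, adjusted p = 0.00696).

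Of all 37 genes, 5 were higher in hypoxia in each of the 4 pairs (13.5%, against 20.2% of all genes) and 4 were lower (10.8%, against 19.6%), shares below those of all genes. Myog, Mylpf and Myh3 were in neither group. On the first-set wild-type pair, where they were high, they differed between hypoxia and normoxia by -0.08, -0.09 and -0.18. With the set as a block in limma, the genotype by oxygen interaction called 0 of the 30 members and 0% of all genes. At an unadjusted p under 0.05 it was 0 members and 329 genes, with a wide standard error of 1.56 for Myog. With a mean for each genotype and set, 0% of all genes were called. Of the 24 members above the filter on the other arrays, 2 then had an unadjusted p under 0.05 (8.33%). Among all genes above that filter it was 4.07%.

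**Figure D5:**
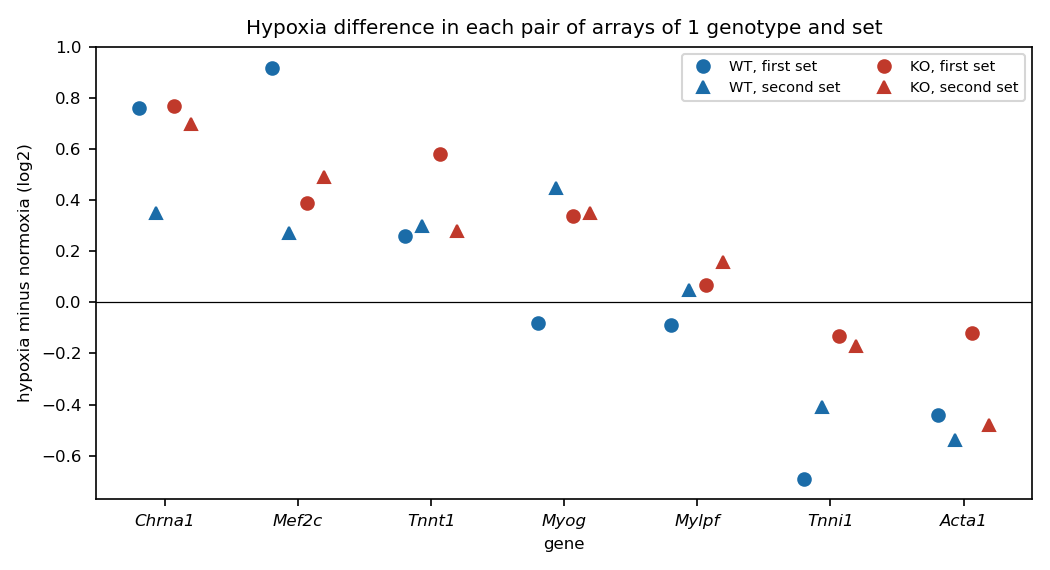
Hypoxia minus normoxia in log2 units for 7 muscle genes in each of the 4 pairs of arrays (2 genotypes in 2 sets), 1 point per pair. Chrna1, Mef2c and Tnnt1 lie above 0 and Tnni1 and Acta1 below 0 in all 4 pairs, whereas Myog and Mylpf lie on both sides of 0.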

How the data were processed

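RNA from mouse embryonic fibroblasts was measured on 8 one-colour Affymetrix arrays. The deposited table holds log2 values which, per the submitters' processing notes, come from RMA (background correction, quantile normalization and probe summary). The sources used here do not say if 1 run covered all arrays. No further normalization was applied, and array medians lay between 5.01 and 5.12. Names came from the platform annotation, which gave 34945 probe sets exactly 1 symbol, 932 several (left out here) and 9160 none. Symbols were updated through a RefSeq table of GRCm38.p6. The probe set with the highest average stood for its gene, and 13647 genes with an average of at least 4.17, the 25th percentile, were tested.

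Tests used limma 3.58.1 in R 4.3.3: 1 linear model over all 8 arrays with 1 term per group and the set as a block, eBayes with a trend, and two-sided p-values with Benjamini-Hochberg adjustment over all genes tested. A gene is called at an adjusted p under 0.05, every adjusted p in the text comes from limma, and errors of log2 differences are standard errors. Deviations of the second from the first set correlated across genes between groups at 0.71 to 0.85, so the sets pair the arrays. In data simulated for knockout against wild type in normoxia over 13647 genes, the fit called 98 of 100 genes changed by 1 log2 unit and 100 of 100 changed by 2, with 12 false calls. The simulated noise was independent between arrays, and no simulated genotype difference varied between the sets. Many muscle genes did vary in that way, with standard errors in normoxia of 1.14 for Mylpf and 1.10 for Myog. The simulated rates therefore do not apply to the genotype tests of such members. Precision is limited by the number of arrays.

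The 37 genes, their roles and the lists for other cell types were chosen with earlier results of these data known. Values are given on every array for Myog, Mylpf, Myod1, Egln2, the members called in a contrast of the fit with the set as a block and the 8 of widest range. The others are given by range, by their gap or by their values on the pair that stood apart. The fits with a mean per genotype and set, and without both first-set wild-type arrays, were added after the values were seen. The other alternatives were the set left out or as a random block, other filters, the mean of all probe sets, no trend, only the groups compared and each array left out. Some listed genes of other cell types are not analysed here.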

Additional observations from a re-analysis of the deposited data

Results flagged for a closer look

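For 19 of the 30 tested muscle genes the knockout difference was not the same in the 2 sets, by the interaction in the limma fit with a mean for each genotype and set. In 5 of these (Myog, Myh3, Tnnt3, Mybph and Ttn) the mean passes the filter only through the high pair, so their values are a description. Among the 24 members that pass it on the other arrays it was 14. That fit was chosen after the values were seen, so the calls of these 14 are no independent support either. All 19 interactions (second-set minus first-set difference, log2) were above 0, and that fit's replicates are 2 arrays which may come from 1 preparation. They were 4.42 for Myog and 1.80 for Mef2c among the regulators. Among myosins they were 4.88 for Myh3, 4.59 for Mylpf, 4.54 for Myl1 and 3.64 for Myl4. Among troponins they were 3.34 for Tnnt1, 3.19 for Tnni1, 3.00 for Tnnc1, 2.84 for Tnnc2, 2.73 for Tnnt2, 2.31 for Tnnt3 and 1.79 for Tnni2. The remaining sarcomere genes gave 3.65 for Actc1, 2.11 for Mybph, 1.93 for Actn2 and 1.72 for Ttn. Outside the sarcomere they were 1.85 for Casq2 and 1.64 for Chrna1. The 11 tested members without a called interaction included Acta1 (0.40, adjusted p = 0.218), Des (0.135, adjusted p = 0.823) and Cav3 (1.00, adjusted p = 0.295).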

How the results depend on the processing

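The genotype contrasts (normoxia, hypoxia and their mean) called 0 members under every alternative run, each array left out in turn included. Without the replicate block, and with the set as a random block, 0 of all genes were called in these 3 contrasts, against 5, 4 and 35 in the main fit. Where so few genes are called at all, a count of 0 members carries little information. The fit with a mean per genotype and set does not give these contrasts. The hypoxia call in wild type (1 member, Acta1) became 0 with no replicate block, with the set as a random block, with the mean of all probe sets, without the trend, with only the 4 arrays compared and without both first-set wild-type arrays, and 4 with a mean per genotype and set. With 1 array left out it was 0 to 1. The knockout's hypoxia count went from 0 to 1 with a mean per genotype and set. Over both genotypes the count of 1 became 0 with no replicate block and with the random block, 5 with a mean per genotype and set, and 0 to 1 with 1 array left out; the 1 call without both first-set wild-type arrays was not Acta1 (adjusted p = 0.0676). All hypoxia calls over all genes also fell without the replicate block, to 20 in wild type, to 12 in the knockout and to 99 over both. Second against first set went from 7 members to 4 with a filter at the 50th percentile, and to 3 to 18 with 1 array left out. The excess of sarcomere over regulator means (0.581) became -0.663 with tested members only, 5 of which pass the filter only through the high pair, and 0.5 to 0.828 with 1 array left out. The causes were not tested. RMA values near the bottom of the scale, as for Myf5, Myf6 and Pax7, carry little signal over background, so differences there may be understated.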

Other observations

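Of the 62 genes that stood apart by at least 1 log2 unit on the first-set wild-type arrays, 17 are members and 3 belong to the other muscle genes. Of the other 42, chosen for mention after their values were seen, S100a8 (2.20) and S100a9 (1.56), the subunits of calprotectin, C3ar1 (2.00), a complement receptor, and C1qa (1.31), C1qb (1.27) and C1qc (1.24), the chains of complement C1q, are typical of myeloid cells. Muscle genes outside the lists were there too: Smpx (1.54), a small protein of striated muscle, and Itgb1bp2 (1.37), the muscle chaperone melusin. Dcx (1.64), a microtubule protein of migrating neurons, and Crabp1 (1.27), a retinoic acid carrier, were also among them.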
